A study of Mus musculus with 4 samples.

Results

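A set of 10 imprinted genes with known roles in growth was followed through embryonic development of the mouse mammary gland, at 4 stages and in 2 tissues. The genes, taken by symbol from the 32932 gene identifiers that the stages' gene lists hold together, were Plagl1, Cdkn1c, H19, Dlk1, Meg3, Peg3, Mest, Grb10, Ndn and Nnat. All 10 had 1 identifier, the same in each of the 4 lists, and 0 of them shared exons with another listed gene on the same strand.

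An imprinted gene is transcribed mainly from the copy inherited from one parent, under control regions whose DNA methylation was set in the germ line of one parent. Many such genes are abundant in the embryo, act on its growth and are turned down after birth. In mouse embryos Cdkn1c, H19, Meg3 and, in most tissues, Grb10 are transcribed from the maternal copy, and Plagl1, Dlk1, Peg3, Mest, Ndn and Nnat from the paternal copy. The mice were of 1 strain, so the counts hold no information on which copy was read.

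Mammary tissue of wild-type C57B6 females was taken at 3 embryonic ages, named E13.5, E14.5 and E15.5 after the day of gestation, and at birth (P0). It was pooled from several animals and sorted into EpCAM+ epithelial and EpCAM- stromal cells after removal of CD45, CD31 and Ter119 positive cells. P0 glands were digested with other amounts of the enzymes than embryonic tissue, and red blood cells were lysed at P0 only. This bears on every comparison with P0. Each stage gave 1 single-cell library of the 10x 3′ kind, so no value has a replicate and no test between groups was possible. Stage and library are one and the same here and cannot be told apart. Cells holding 5000 or more UMIs (unique molecular identifiers, which count captured transcripts), no more than 6% of them mitochondrial, were assigned to a tissue. A cell was epithelial when its summed Epcam, Krt8, Krt18, Krt5 and Krt14 UMIs were above those of Col1a1, Col1a2 and Col3a1, and mesenchymal when they were below. This gave 98, 45, 532 and 230 epithelial and 135, 31, 283 and 273 mesenchymal cells in order of stage. The few kept cells with equal sums (2 at E13.5 and 1 at E15.5) were in neither class. Epidermis carries the same keratins and was not separated from mammary epithelium. By the study's own counts, mammary cells would be a small part of these epithelial cells at E13.5 and most of them at E15.5 and P0. Levels are given as CPM (UMIs scaled to the same total) of the summed cells of a tissue, with the exact 95% Poisson interval in brackets, and ratios of levels carry the exact conditional binomial interval. All intervals cover counting error within 1 library only.

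The 2 tissues were well separated. Mesenchymal markers outside the rule (Pdgfra, Pdgfrb, Lum, Twist2, Prrx1, Col5a1, Col6a1 and Col6a3) were summed in epithelium to between 0.581% (P0) and 1.83% (E13.5) of their mesenchymal level. Epithelial markers outside the rule were in mesenchyme at 0.462% (E14.5) to 3.29% (P0) of their epithelial level. Median depth lay between 8743 and 26725 UMIs per cell and was lowest at P0. The P0 mesenchyme held 6 cells with 5 or more haemoglobin or Alas2 UMIs, and these genes summed to 10383 CPM there. No barcode was shared between libraries among the kept cells. The E15.5 table was made with an older Cell Ranger version and gene list than the other 3, which bears on every comparison with E15.5.

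Promoter sequences are shown for 5 members on which the results within mesenchyme turn, namely 4 of those that varied together and Nnat, which went against them. RefSeq promoters (GRCm38.p6, 250 bases before to 50 after the start, read on the strand of the gene) were found for 8 of the 10 members, all but Cdkn1c and H19. Where a gene had several, the one with the most CpG dinucleotides was taken. Plagl1 encodes a zinc-finger protein known to bind GC-rich DNA with a run of G followed by C, so the letters GGGGCC on either strand (GGCCCC on the other) are in capitals.
Plagl1, chr10:13090582-13090881, plus strand: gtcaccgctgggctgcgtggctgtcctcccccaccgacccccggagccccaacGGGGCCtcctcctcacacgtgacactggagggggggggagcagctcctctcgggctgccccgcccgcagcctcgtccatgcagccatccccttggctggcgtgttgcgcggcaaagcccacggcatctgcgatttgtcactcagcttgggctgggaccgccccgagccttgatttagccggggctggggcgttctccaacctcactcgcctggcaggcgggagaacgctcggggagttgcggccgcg
Mest, chr6:30737800-30738099, plus strand: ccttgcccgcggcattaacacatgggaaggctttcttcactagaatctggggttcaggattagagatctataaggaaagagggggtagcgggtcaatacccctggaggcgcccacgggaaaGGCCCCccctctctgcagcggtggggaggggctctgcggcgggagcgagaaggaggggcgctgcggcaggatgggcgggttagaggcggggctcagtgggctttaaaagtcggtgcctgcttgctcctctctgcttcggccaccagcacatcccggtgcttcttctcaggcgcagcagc
Dlk1, chr12:109452573-109452872, plus strand: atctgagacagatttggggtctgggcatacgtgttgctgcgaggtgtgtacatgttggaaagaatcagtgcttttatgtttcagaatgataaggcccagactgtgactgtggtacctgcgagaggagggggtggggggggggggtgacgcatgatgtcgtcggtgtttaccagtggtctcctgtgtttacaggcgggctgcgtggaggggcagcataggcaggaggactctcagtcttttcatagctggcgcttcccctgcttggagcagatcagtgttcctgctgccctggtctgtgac
Meg3, chr12:109540746-109541045, plus strand: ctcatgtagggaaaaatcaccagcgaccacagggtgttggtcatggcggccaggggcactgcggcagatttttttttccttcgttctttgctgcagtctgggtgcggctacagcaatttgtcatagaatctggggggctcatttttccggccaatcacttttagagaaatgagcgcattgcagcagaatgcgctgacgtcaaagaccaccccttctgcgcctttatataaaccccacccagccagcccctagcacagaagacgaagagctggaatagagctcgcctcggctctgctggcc
Nnat, chr2:157559828-157560127, plus strand: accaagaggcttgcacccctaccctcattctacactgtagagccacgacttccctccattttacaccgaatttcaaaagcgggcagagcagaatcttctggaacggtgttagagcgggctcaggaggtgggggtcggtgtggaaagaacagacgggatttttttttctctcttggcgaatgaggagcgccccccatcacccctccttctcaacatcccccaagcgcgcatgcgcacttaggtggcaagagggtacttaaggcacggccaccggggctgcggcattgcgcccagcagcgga

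The letters GGGGCC were in 4 of the 8 promoters (Plagl1, Mest, Peg3 and Grb10), against 24.97% of the 32851 mouse promoters of this length. These mouse promoters were all taken, without the choice of the most CpG-rich one that was made for Mest, Grb10 and Meg3. The members and the background are thus not on equal terms, for the letters or for CpG. Of the 5 promoters shown, that of Plagl1 was the richest in CpG, with 26, and that of Dlk1 the poorest, with 9, while the median promoter had 7. The loci of 3 members also carry a microRNA, shown with its seed (bases 2 to 8) in capitals because each lies inside the gene of a member. Poly-A 3′ libraries count the host transcripts and not the mature microRNAs, so nothing was measured on these.
mmu-miR-675-5p, in an exon of H19, chr7:142577112-142577133, minus strand: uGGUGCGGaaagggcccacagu
mmu-miR-770-5p, in an exon of Meg3, chr12:109563710-109563731, plus strand: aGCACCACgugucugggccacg
mmu-miR-335-5p, in an intron of Mest, chr6:30741314-30741336, plus strand: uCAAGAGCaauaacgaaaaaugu

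The 3 seeds differed from each other. In the GENCODE annotation of GRCm38, Plagl1 spans chr10:13060504-13131694, Peg3 chr7:6703892-6730431, Cdkn1c chr7:143458339-143461050, Grb10 chr11:11930508-12038683, Ndn chr7:62346569-62350262 and Nnat chr2:157560078-157562522. Dlk1 (chr12:109452823-109463336) and Meg3 (chr12:109541001-109571726) are neighbours of 1 imprinted cluster. H19 (chr7:142575529-142578143) is the neighbour of Igf2, and Mest spans chr6:30723547-30748465.

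How the 10 genes were divided between the tissues was the first comparison. They were mainly genes of the mesenchyme. At E13.5, 8 of 10 were 2-fold or more higher in mesenchyme than in epithelium, against 17.8% of the 8192 genes with 50 or more UMIs in the 2 tissues together. At E14.5 the count was 9 of 10 (14.7% of all genes), at E15.5 7 of 10 (20.6%), and at P0 9 of the 9 members that passed this filter (17.1%), Nnat having 46 UMIs there and failing it. Of the members that passed, 0 were 2-fold or more lower in mesenchyme at any stage, where 8.96%, 12.7%, 15.8% and 23.2% of all genes were, in order of stage. In either direction 26.7%, 27.4%, 36.4% and 40.3% of all genes were 2-fold or more apart. The median member was 6.15, 7.32, 3.92 and 13.8 times higher in mesenchyme in order of stage, and the median of all genes 1.09, 0.957, 1.06 and 0.793 times.

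**Figure D1:**
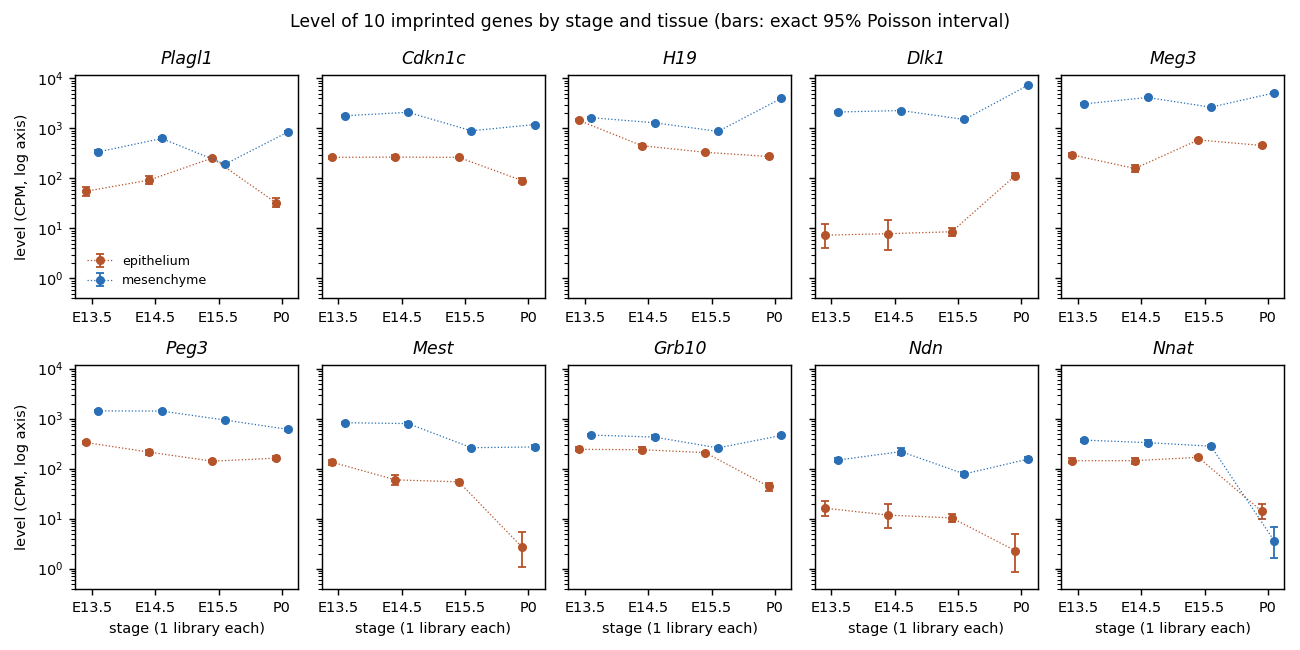
Level of each of the 10 imprinted genes (CPM, log axis) at the 4 stages, 1 library each, in epithelium (brown) and mesenchyme (blue), with exact 95% Poisson intervals and dotted lines joining the stages. Mesenchyme lies above epithelium in every panel and stage except Plagl1 at E15.5 and Nnat at P0, where the points cross.

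Plagl1 and Peg3 encode zinc-finger transcription regulators, Plagl1 one that restrains proliferation and regulates other imprinted genes, Peg3 one tied to growth and maternal behaviour. Plagl1 in mesenchyme was at 340 CPM (317 to 364) at E13.5, 631 (579 to 687) at E14.5, 193 (183 to 204) at E15.5 and 858 (822 to 895) at P0. In epithelium it was at 55.3 CPM (45.6 to 66.5), 92.7 (76.7 to 111), 256 (248 to 264) and 32.9 (26.3 to 40.6) at these stages. Plagl1 was thus lowest in mesenchyme and highest in epithelium at the same stage, E15.5, and the summed tissues changed order there. This order did not hold in all of the mesenchyme. The 141 cells lower in markers of the mesenchyme around the bud, described below, held 386 CPM, above the epithelium. The 142 cells higher in these markers held 43.6 CPM. The mesenchyme to epithelium ratio was 6.14 (5.04 to 7.54) at E13.5, 6.81 (5.57 to 8.39) at E14.5, 0.755 (0.710 to 0.803) at E15.5 and 26.1 (21.02 to 32.7) at P0. The share of cells with a Plagl1 UMI went the same way at E15.5, with 91.2% of epithelial and 60.4% of mesenchymal cells. With every cell thinned to 5000 UMIs these shares were 60.3% and 34.98%, in the same order. At P0 they were 23.9% and 94.5%. The epithelial cells of E15.5 held from 0 to 1574 CPM of Plagl1 with a median of 192, and the mesenchymal cells from 0 to 2096 with a median of 36.8.

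Peg3 kept its tissue order at all 4 stages. Its mesenchymal level was 1433 CPM (1386 to 1482) at E13.5, 1419 (1339 to 1502) at E14.5, 938 (916 to 961) at E15.5 and 609 (578 to 640) at P0, and the first 2 intervals overlapped. Its epithelial level was 334 CPM (309 to 360), 214 (190 to 241), 141 (135 to 148) and 162 (147 to 178). The ratio ranged from 3.75 (3.37 to 4.19) at P0 to 6.64 (6.32 to 6.98) at E15.5. All 283 mesenchymal cells of E15.5 had a Peg3 UMI, as did 74.1% of the epithelial cells.

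Cdkn1c, Grb10 and Ndn encode proteins that hold growth back. Cdkn1c is an inhibitor of cyclin-dependent kinases, Grb10 an adaptor that dampens signalling from the insulin and IGF receptors, and Ndn (necdin) a protein of the MAGE family that opposes proliferation in neurons and other cells. Cdkn1c in mesenchyme was at 1797 CPM (1744 to 1852), 2106 (2009 to 2207), 900 (878 to 922) and 1200 (1157 to 1244) in order of stage. In epithelium it stood at 264 CPM (243 to 288), 268 (240 to 298) and 265 (256 to 273) in the embryo, 3 intervals that overlapped, and at 90.7 (79.5 to 103) at P0. In the 26 P0 epithelial cells without a UMI of the 3 collagens it was higher, at 162 CPM (118 to 218). Its ratio was lowest at E15.5, at 3.40 (3.26 to 3.54), and highest at P0, at 13.2 (11.6 to 15.2).

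Grb10 was the 1 member that stayed below 2-fold between the tissues at all 3 embryonic stages. Its mesenchymal level was 470 CPM (443 to 499) at E13.5, 428 (385 to 475) at E14.5, 260 (248 to 272) at E15.5 and 461 (435 to 489) at P0, and its epithelial level 243 (222 to 266), 240 (213 to 268), 210 (202 to 217) and 44.0 (36.3 to 52.8). The embryonic ratios were 1.93 (1.74 to 2.15), 1.79 (1.53 to 2.09) and 1.24 (1.17 to 1.31), and was 10.49 (8.65 to 12.8) at P0. Ndn was at 149 CPM (134 to 165), 220 (189 to 254), 78.2 (71.9 to 84.9) and 155 (140 to 171) in mesenchyme. In epithelium it was at 16.2 CPM or below at all 4 stages, and at P0 it rested on 6 UMIs in 5 of 230 cells. That P0 level was 1.48% (0.540 to 3.25) of the mesenchymal one. The interval holds the 0.581% of the mesenchymal markers outside the rule, so the level cannot be told from background.

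Dlk1, Mest and Nnat encode membrane proteins. Dlk1 is a relative of the Notch ligands that marks fat cell precursors and opposes their differentiation, Mest a hydrolase-like protein of the endoplasmic reticulum tied to fetal growth and fat expansion, and Nnat (neuronatin) a small proteolipid of the endoplasmic reticulum that acts on calcium handling. Dlk1 had the widest gap between the tissues of the 10 members in the embryo, at 2135 CPM (2077 to 2194), 2286 (2185 to 2391) and 1514 (1485 to 1542), against 7.35 (4.11 to 12.1), 7.85 (3.77 to 14.4) and 8.61 (7.15 to 10.3) in epithelium. The embryonic ratios were 291 (176 to 520), 291 (158 to 608) and 176 (147 to 212). The epithelial level was 0.344%, 0.344% and 0.569% of the mesenchymal one, below the 1.83%, 1.66% and 1.51% that the mesenchymal markers outside the rule reached, so it is read as background, and the embryonic ratios describe the measured UMIs only.

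At P0 Dlk1 was higher in both tissues. Its mesenchymal level was 7276 CPM (7171 to 7383), with a UMI in 97.8% of cells. Its epithelial level was 114 CPM (101 to 127), which is 1.56% (1.39 to 1.75) of the mesenchymal level, above the 0.581% (0.463 to 0.720) of the other mesenchymal markers. The 297 epithelial UMIs lay in 86 of 230 cells, and 138 of them in the 10 cells with the most. In the 26 epithelial cells without a UMI of the 3 collagens the level was 95.9 CPM (62.6 to 141). In the 222 epithelial cells whose marker sums were 10 times or more apart it was 108.9 CPM (96.4 to 122.5). The part of mesenchymal RNA in this level was not tested.

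Mest in mesenchyme was at 830 CPM (794 to 867), 798 (739 to 861), 263 (251 to 275) and 272 (252 to 293), with overlap between the first pair of stages and between the last pair. In epithelium it went from 135 CPM (119 to 152) at E13.5 through 59.7 (47.0 to 74.7) and 54.5 (50.7 to 58.5) to 2.68 (1.08 to 5.52), or 7 UMIs, at P0. The ratio was accordingly highest at P0, at 102, with a wide interval (49.0 to 254). The P0 epithelial level was 0.985% (0.394 to 2.04) of the mesenchymal one. That interval holds the 0.581% of the mesenchymal markers outside the rule. The level cannot be told from background, and the P0 ratio describes the measured UMIs only. Nnat was moderate in both tissues of the embryo, with 373 CPM (349 to 398), 332 (294 to 373) and 281 (269 to 294) in mesenchyme and 144 (128 to 161), 145 (124 to 167) and 169 (162 to 175) in epithelium. At P0 it was nearly gone from both, with 9 UMIs in mesenchyme, or 3.59 CPM (1.64 to 6.81), and 37 UMIs in epithelium, or 14.2 (9.96 to 19.5). Its ratio was 2.59 (2.27 to 2.96), 2.30 (1.90 to 2.78), 1.67 (1.57 to 1.77) and, on these few UMIs, 0.254 (0.108 to 0.535).

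H19 and Meg3 are long noncoding RNAs of maternally transcribed loci, H19 one that limits fetal growth and hosts miR-675, Meg3 one of the Dlk1 cluster. At E13.5 H19 was almost equally high in both tissues, at 1645 CPM (1595 to 1697) in mesenchyme and 1459 (1407 to 1512) in epithelium. The ratio of 1.13 (1.08 to 1.18) fell below 1 when cells were thinned to 5000 UMIs, at -0.15 on the log2 scale against 0.17, and so has no settled direction. In epithelium H19 was lower at each later stage, at 452 CPM (416 to 491), 334 (324 to 343) and 275 (256 to 296), while in mesenchyme it was at 1299 (1223 to 1379), 875 (854 to 897) and 3989 (3911 to 4068). In the 26 P0 epithelial cells without a UMI of the 3 collagens H19 was lower, at 70.1 CPM (42.2 to 109). The part of mesenchymal RNA in its P0 epithelial level was not tested. H19 was unevenly spread among the epithelial cells of E13.5, from 0 to 9924 CPM with a median of 617.

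Meg3 was at 3109 CPM (3039 to 3180), 4170 (4033 to 4311), 2665 (2627 to 2702) and 5157 (5069 to 5247) in mesenchyme. In epithelium it was at 298 CPM (275 to 323), 159 (138 to 182), 589 (577 to 602) and 458 (432 to 485), so that its epithelial level, like that of Plagl1, was highest at E15.5. An antisense gene over Meg3, Gm26906, is in the gene list of E15.5 alone. It lies on the other strand with overlapping exons, and its part in the E15.5 level was not tested. The ratio was 10.4 (9.59 to 11.3), 26.3 (22.8 to 30.45), 4.52 (4.41 to 4.64) and 11.3 (10.6 to 11.96).

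**Figure D2:**
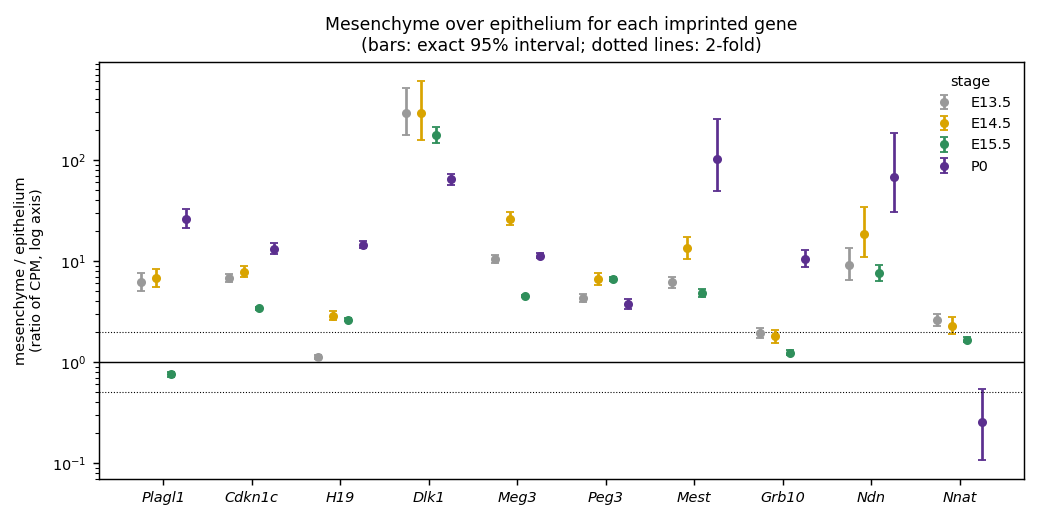
Ratio of the mesenchymal to the epithelial level (log axis) of each gene at the 4 stages, with exact 95% intervals, a line at 1 and dotted lines at 2-fold in both directions. Dlk1 stands highest in the embryo, Grb10 lies below the 2-fold line until P0, and the points of Plagl1 at E15.5 (0.755) and Nnat at P0 (0.254) lie below 1.

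The second comparison was between stages within mesenchyme. Between E13.5 and E14.5, 0 of 10 members were 2-fold apart (7.22% of all genes were, 4.21% higher and 3% lower), and Plagl1 differed most, at 1.86 (1.66 to 2.08) times its E13.5 level. At E15.5 the members ranged from 0.317 (Mest) to 0.857 (Meg3) times their E13.5 level. Only Mest was 2-fold or more lower (10.1% of all genes, with 6.64% as much higher and 16.7% in either direction), and Cdkn1c lay at the limit, at 0.5005 (0.482 to 0.520), and passed it with a mitochondrial limit of 10% or an epithelial sum of Epcam, Krt8 and Krt18. The median of the members was 0.561 times the E13.5 level, and that of all genes 0.896 times.

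From E15.5 to P0 the members parted, where 39.9% of all genes were 2-fold or more apart. Plagl1 was 4.44 (4.15 to 4.75) times, H19 4.56 (4.42 to 4.70) times and Dlk1 4.81 (4.69 to 4.92) times higher at P0, which makes 3 members past 2-fold upward (12.7% of all genes). Nnat alone was past 2-fold downward (27.2%), at 0.0128 (0.00582 to 0.0243) times its E15.5 level. The median of all genes was 0.744 times the E15.5 level. Divided by that median, 7 members were 2-fold or more apart, with Meg3, Grb10 and Ndn added on the higher side. Against E13.5, the P0 mesenchyme had Plagl1, H19 and Dlk1 2-fold or more higher (13.9% of all genes) at 2.53, 2.42 and 3.41 times, and Peg3, Mest and Nnat 2-fold or more lower (33.1%) at 0.425, 0.328 and 0.00963 times, and 46.9% of all genes were that far apart. Divided by the median of all genes, 0.679 times, Peg3 no longer passed and Meg3 was added on the higher side. Grb10 and Ndn were at 0.981 (0.903 to 1.07) and 1.04 (0.902 to 1.21) times their E13.5 level. The mesenchymal cells were not divided in these comparisons, so the values average over all kinds of them. The summed markers of the mesenchyme around the bud, described below, were at 902, 1662, 1769 and 833 CPM in order of stage. Over E15.5 cells, r of the members with the score of these markers ran from -0.783 (Cdkn1c) to 0.367 (Nnat). The part of the mix of mesenchymal cells in the differences between stages was not tested.

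In epithelium the members were lower at P0 than in the embryo, apart from Dlk1, Meg3 and Peg3. Between E13.5 and E14.5, H19 at 0.310 (0.283 to 0.339) and Mest at 0.443 (0.339 to 0.573) times were the 2 members 2-fold or more lower, of 8 that passed the filter (3.79% of all genes), and 0 were that much higher (8.42%, or 12.2% in either direction). Between E13.5 and E15.5 Plagl1 was 4.62 (3.83 to 5.63) times higher (14.4%), and H19, Peg3 and Mest were at 0.229, 0.423 and 0.405 times (12.3%, or 26.8% in either direction). Meg3 lay just under 2-fold, at 1.97 (1.82 to 2.15) times.

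From E15.5 to P0, 6 of 10 members were 2-fold or more lower in epithelium (17.8% of all genes, with 30.6% in either direction). Mest was at 0.0491 (0.0197 to 0.102) times its E15.5 level, Nnat at 0.0839 (0.0590 to 0.116), Plagl1 at 0.1285 (0.103 to 0.159), Grb10 at 0.210, Ndn at 0.222 and Cdkn1c at 0.342. The P0 levels of Mest and Ndn cannot be told from background, so their folds describe the measured UMIs only. Dlk1 was the 1 member counted as 2-fold or more higher (12.8% of all genes), at 114 against 8.61 CPM. The E15.5 level is read as background, so no fold is given. Peg3 was at 1.15 (1.03 to 1.28) times its E15.5 level. Over the whole span from E13.5 to P0, 1 of the 9 members that passed was 2-fold or more higher (16.5% of all genes) and 6 were that much lower (18.1%, or 34.6% in either direction), among them H19 at 0.189 (0.174 to 0.205) times. The 1 higher was Dlk1, which passed the filter through its 297 UMIs at P0 against 15 at E13.5, a level read as background. Peg3, at 0.485 (0.429 to 0.549) times, was not 2-fold lower with thinned cells, the mean of cell CPM, 10 CPM added or division by the median of all genes. The epithelial cells were not divided further, so these values average over all kinds of epithelial cell in a library. The mix of mammary and epidermal cells was not alike between stages, and its part in these differences was not tested.

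How the genes varied from cell to cell within mesenchyme was described by Pearson r over cells of the natural logarithm of 1 + UMIs per 10000. The cells of a stage share 1 library, and r is given without a test. The 45 pairs of members had a median r of 0.217 at E13.5 (135 cells), 0.574 at E14.5 (31 cells), 0.226 at E15.5 (283 cells) and 0.306 at P0 (273 cells). All pairs of genes found in 25% or more of the same cells had medians between 0.003 and 0.021. At r of 0.3 or more were 16, 27, 20 and 23 of the 45 pairs, against 0.197%, 6.78%, 0.187% and 0.295% of all pairs. Among genes found in 75% or more of the cells, to which 9, 10, 9 and 7 members belong, the share of all pairs was 0.853%, 7.66%, 0.862% and 8.10%.

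These counts moved with depth and, at P0, with a few cells. With cells thinned to 5000 UMIs the median r of the members was 0.250 for E14.5 and 0.084 for E15.5, and pairs at 0.3 or more numbered 7, 20, 16 and 15. At P0, leaving out the 20 cells with 5 or more UMIs of a marker list of another cell type (such as blood, immune or muscle) lowered the median to 0.192 and the pairs at 0.3 or more from 23 to 7. A mitochondrial limit of 10%, which adds 2 mesenchymal cells at E14.5, lowered the median there to 0.376. In epithelium the same 45 pairs had medians of -0.006, -0.001, 0.042 and 0.029, with 1, 3, 0 and 1 pairs at 0.3 or more. Of all pairs of genes found in 25% or more of the epithelial cells, 0.953%, 5.32%, 0.0919% and 0.0979% were that high. Only 9, 9, 8 and 6 members were found in that many epithelial cells, so some of these r rest on few UMIs. The tissues are thus not on equal terms here.

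**Figure D3:**
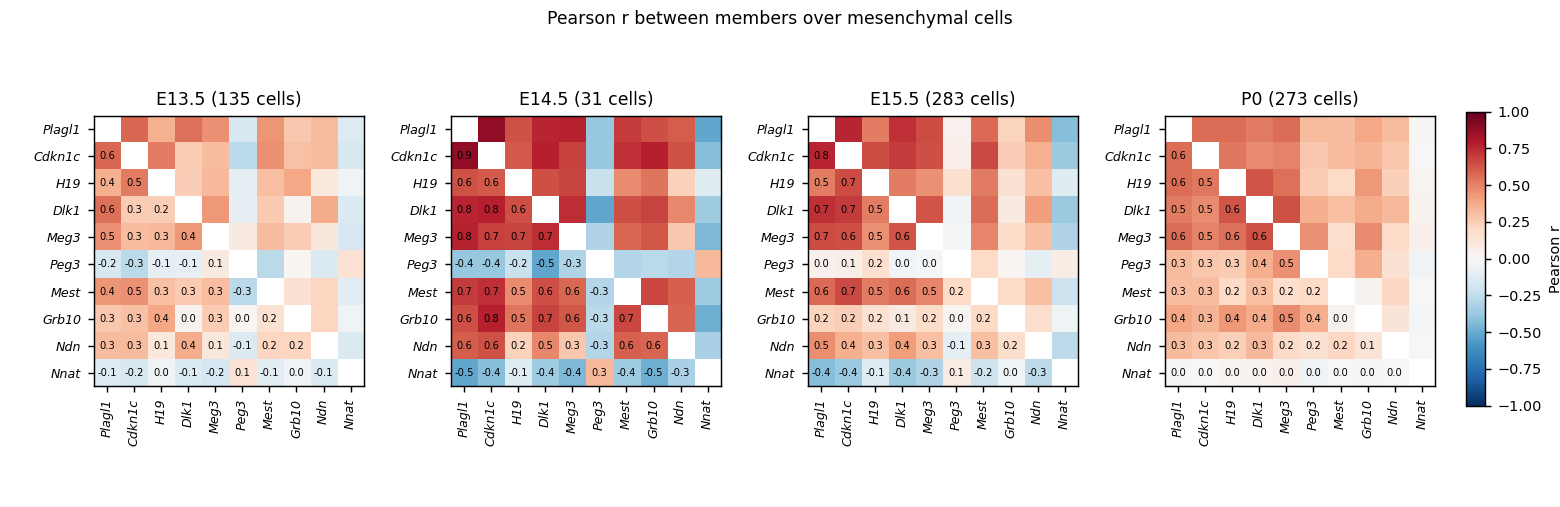
Pearson r over mesenchymal cells for each pair of members, by stage, from blue (-1) through white (0) to red (1), with values in the lower triangle. A block of positive r joins Plagl1, Cdkn1c, H19, Dlk1, Meg3, Mest and Ndn at each stage. Grb10 is also positive with each of them at each stage, in places near 0 (0.037 with Dlk1 at E13.5). Nnat is blue against nearly all others in the embryo, and Peg3 has no r above 0.199 in the embryo except with Nnat at E14.5 (0.324).

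In this block Plagl1 had r of 0.3 or more with 6 of the other 9 members at all 4 stages (Cdkn1c, Dlk1, H19, Meg3, Mest and Ndn). No other member had as many. In all, 12 pairs did so. Of these, 3 held under each of the 10 ways of choosing cells or computing r that were tried. They were Plagl1 with Cdkn1c, Plagl1 with Meg3, and Cdkn1c with H19. The study picked Plagl1 and Cdkn1c on the E15.5 cells as genes of the mesenchyme farther from the bud. Their r with each other at E15.5 is therefore not independent of that choice. The lead of Plagl1 did not hold under each of the 10 ways. By Spearman's measure Cdkn1c had more such pairs than Plagl1. Another member had as many as Plagl1 with a minimum of 3000 UMIs and with marker sums 10 times or more apart. So it was without the cells of other marker lists. Plagl1 and Cdkn1c had r of 0.577, 0.887, 0.759 and 0.556 in order of stage. The lowest value over the alternatives was 0.389 at E13.5 and 0.585 at E15.5, both with thinned cells, and at P0 0.429, by Spearman's measure. In epithelium the same pair had r of -0.014, 0.016, -0.017 and -0.027, also at E15.5, where epithelial Plagl1 was at its highest.

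Dlk1 and Meg3, neighbours on chromosome 12 read from opposite parental copies, had r of 0.433, 0.738, 0.631 and 0.633. The value at P0 was 0.269 without the 20 cells of other marker lists. In the embryo the lowest value over the alternatives was 0.340 at E13.5, with thinned cells. Dlk1 with Plagl1 was alike, at 0.551, 0.759, 0.730 and 0.518, and reached 0.263 at P0 by Spearman's measure.

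Nnat went the other way in the embryo. Its r was below 0 with 8 of the 9 other members, all but Peg3, at each embryonic stage. With Plagl1 it was -0.133, -0.517 and -0.425, and no alternative gave a value above -0.115 at these stages. At P0, with 9 UMIs, it was 0.013 and is read as background. Peg3 had r below 0 with 6 members at E13.5 and with 8 at E14.5, among them Plagl1 (-0.164 and -0.381), and lay near 0 at E15.5, where its r with Plagl1 was 0.044. At P0 it joined Meg3 (0.455), Grb10 (0.365), Dlk1 (0.362) and Plagl1 (0.316). Its r with Plagl1 there was 0.115 with thinned cells and 0.192 without the 20 cells of other marker lists. Grb10 was loosely tied at E13.5 and E15.5, with 1 and 0 pairs at 0.3 or more, and had 7 at E14.5 and 6 at P0.

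**Figure D4:**
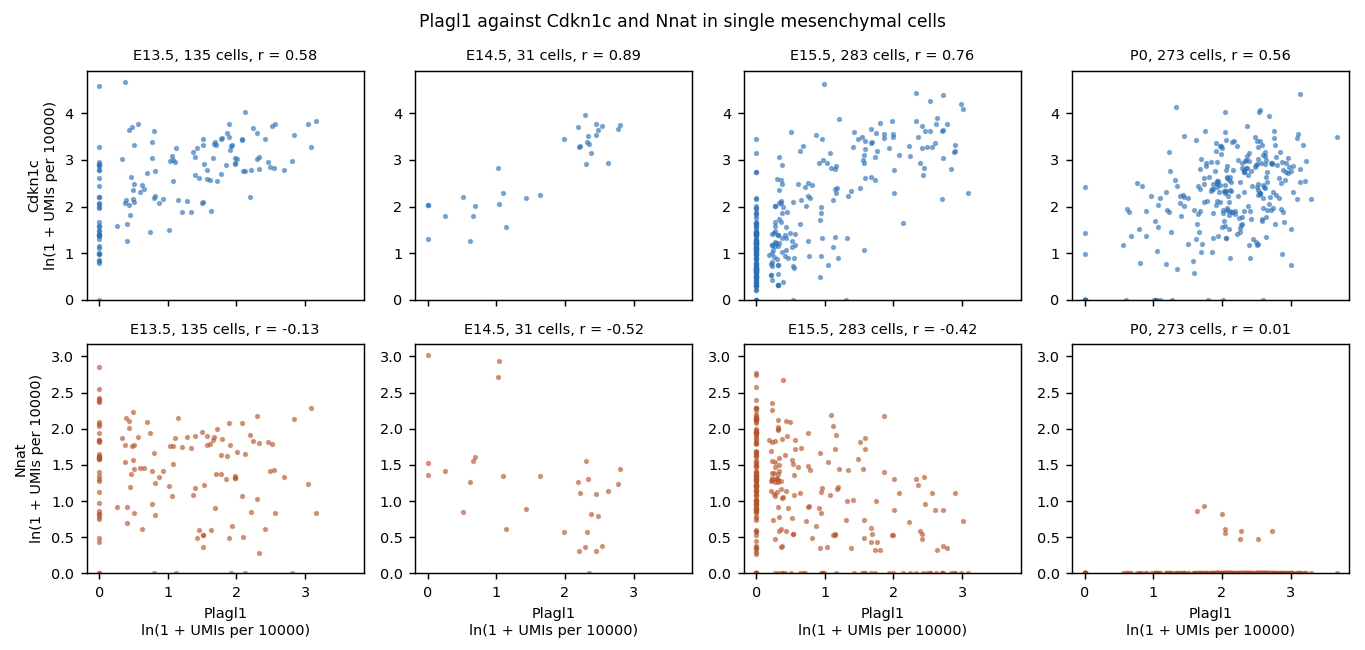
Single mesenchymal cells of each stage, with Plagl1 on the x axis and Cdkn1c (top row) or Nnat (bottom row) on the y axis, all as the natural logarithm of 1 + UMIs per 10000. Cdkn1c rises with Plagl1 at each stage (r from 0.556 to 0.887), Nnat falls with it at the later embryonic stages (r of -0.517 and -0.425), and at P0 nearly all cells lie at 0 for Nnat.

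For each member, the 6993 other genes found in 25% or more of the E15.5 mesenchymal cells were ranked by r. Cdkn1c, H19, Dlk1, Meg3, Mest and Ndn had another member among their 3 closest genes. Plagl1, Peg3, Grb10 and Nnat did not. Cdkn1c (0.661), Plagl1 (0.564) and Dlk1 (0.557) were the 3 highest for Mest, and Plagl1 (0.655), Cdkn1c (0.648) and Dlk1 (0.631) for Meg3. For Cdkn1c they were Dcn (0.793), Plagl1 (0.759) and Gpc3 (0.711), and for H19 they were Cdkn1c (0.656), Ogn (0.539) and Lox (0.530). The genes closest to Plagl1 itself were Ogn (0.781), Itm2a (0.767) and Agtr2 (0.761), with 6 of the 9 other members in its first 100 of 6993. H19, Dlk1, Mest and Ndn had as many members in theirs.

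Dlk1 was closest to Ogn (0.735), Plagl1 (0.730) and Dcn (0.720), and Ndn to Agtr2 (0.497), Itm2a (0.491) and Plagl1 (0.464). Ogn, Dcn and Lox encode proteins of the collagen matrix, Gpc3 is a membrane proteoglycan that limits growth, and Agtr2 is an angiotensin receptor of fetal mesenchyme. Peg3, Grb10 and Nnat had other company and lower values. Peg3 was closest to Sema5a (0.391), Rspo1 (0.354) and Zfp9 (0.306), Grb10 to Ptn (0.366), Ptprd (0.323) and Gpc3 (0.318), and Nnat had Cfl1 (0.421) and Col23a1 (0.406) among its 3 closest genes. No other member was among the first 100 genes of Peg3 or of Nnat at any embryonic stage.

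The mesenchyme next to the bud (sub-epithelial mesenchyme) is known to differ from the dermal mesenchyme farther away, and the members were set against this division at E15.5. A score was taken as the mean level of Esr1, Lef1, Vcan and Crabp1, genes the study places around the bud. The study picked these genes on these same cells, so the score is not independent of them. It also picked Plagl1 and Cdkn1c on them as genes of the farther mesenchyme, so their direction here is not independent evidence. Separately, staining of sections in the study placed PLAGL1 protein and Cdkn1c RNA farther from the bud. The 283 cells were split at the median score into 141 lower and 142 upper cells, of which 20 lay within 0.1 SD of the limit, so both groups are ranges of a score and not cell types.

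Plagl1 was at 386 CPM in the lower-scoring and 43.6 in the upper-scoring cells, a ratio of 8.85 (7.55 to 10.4). Cdkn1c was at 1747 and 240 CPM, a ratio of 7.26 (6.79 to 7.78). Of the members the study did not pick, Mest was 3.14 (2.84 to 3.47), Dlk1 2.90 (2.78 to 3.02), Meg3 2.89 (2.80 to 2.98) and H19 2.44 (2.32 to 2.57) times higher in the lower-scoring cells. In all, 6 of 10 members were 2-fold or more higher there, against 4% of the 8868 genes, and none was that much lower (3.36%). The count includes Plagl1 and Cdkn1c, which the study picked on these cells and which add no independent evidence to it.

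Ndn was at 1.65 (1.39 to 1.95), Grb10 at 1.10 (1.005 to 1.21) and Peg3 at 1.054 (1.004 to 1.11) times. Grb10 changed side with thinned cells and Peg3 without Crabp1 in the score, so neither has a settled direction. Nnat was lower in the lower-scoring cells, at 210 against 337 CPM, or 0.623 (0.567 to 0.684) times. The correlations with the score ran from -0.783 for Cdkn1c, -0.727 for Plagl1 and -0.715 for Dlk1 to 0.022 for Peg3 and 0.367 for Nnat. The lower-scoring cells were shallower, with a median of 22167 against 27060.5 UMIs, and held less of a proliferation list, at 3521 against 5280 CPM. With thinned cells, and without cycling cells, 7 members were 2-fold or more higher in the lower-scoring cells, Ndn being the one added. Without cycling cells Nnat also passed 2-fold in the other direction, at -1.13 on the log2 scale against -0.68.

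**Figure D5:**
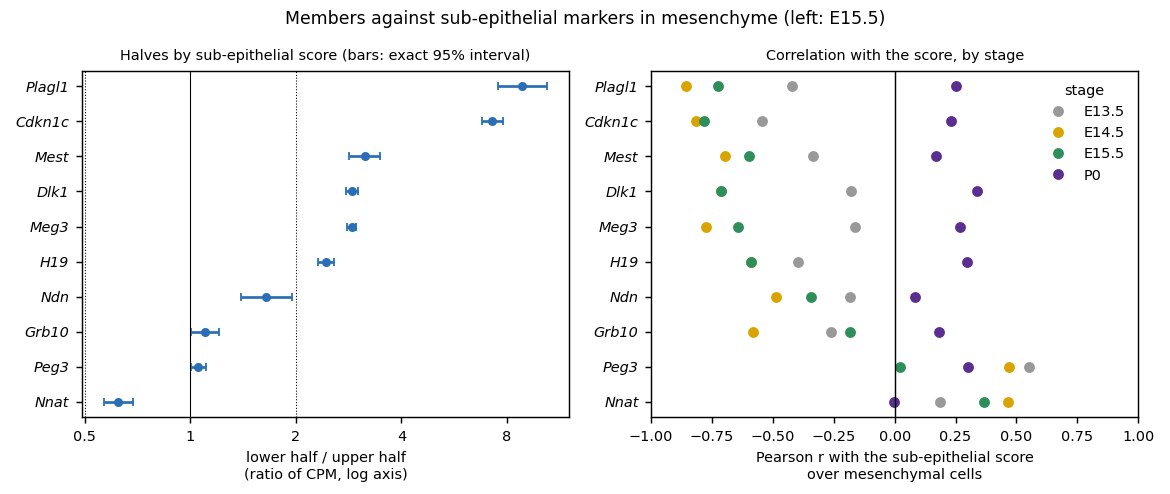
Left, ratio of the 141 lower-scoring to the 142 upper-scoring E15.5 mesenchymal cells by sub-epithelial score for each member (log axis), with exact 95% intervals, a line at 1 and dotted lines at 2-fold. Right, Pearson r of each member with that score over mesenchymal cells at each stage, in which 8 members are negative in the embryo, Peg3 and Nnat are at 0.022 or above, and at P0 9 of 10 are positive.

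At the other embryonic stages r with the score had the same sign as at E15.5 for each member, although that of Peg3 was near 0 at E15.5 (0.022). At E13.5 Cdkn1c had r of -0.543 with it, Plagl1 -0.420 and H19 -0.397, while Peg3 was positive at 0.553 and Nnat at 0.185. At E14.5, over 31 cells, Plagl1 was at -0.858 and Cdkn1c at -0.814. At P0 the members other than Nnat were weakly positive, from 0.084 (Ndn) to 0.336 (Dlk1). These and the P0 values below are over all 273 cells. Among them are the cells of other marker lists, whose removal lowered the P0 correlations between members. Against lists of P0 fibroblast markers, H19, Grb10, Cdkn1c, Plagl1 and Meg3 had r of 0.408, 0.382, 0.377, 0.339 and 0.314 with the list of Pi16, Dpp4, Sema3c and Wnt2, the other 5 members lying between -0.136 (Mest) and 0.146 (Dlk1). With the adipogenic list of Col15a1, Fabp4, Pparg and Aoc3 the members ran from -0.297 (Plagl1) to 0.073 (Peg3), and with the list of Eln, Mfap4 and Mgp from near 0 (Nnat) to 0.294 (Dlk1).

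Other imprinted genes served as the wider group. Of a list of 56, 54 had 1 identifier in every gene list, and 30, 23, 34 and 25 passed the filter between the tissues in order of stage. Of these, 12, 10, 11 and 9 were 2-fold or more higher in mesenchyme, against 17.8%, 14.7%, 20.6% and 17.1% of all genes. In turn 1, 2, 5 and 3 were that much lower, against 8.96%, 12.7%, 15.8% and 23.2%. Their median ratios were 1.33, 1.48, 1.498 and 1.38. The members thus lay further toward mesenchyme than the wider group did at each stage, and the difference was not tested. Igf2, the growth factor next to H19, was 3.62 times higher in mesenchyme at E13.5, 9.38 times at E14.5. At P0 it was at 3055 CPM in mesenchyme and 16.1 CPM, or 42 UMIs, in epithelium. The latter is within the carry-over of mesenchymal markers and read as background, so no fold is given. Its E15.5 level is not set beside the others, because a gene that overlaps it on the same strand, Gm49394, is in the gene list of that stage alone.

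Within mesenchyme, Igf2 had r of 0.705, 0.713 and 0.694 with H19 and of 0.537, 0.665 and 0.628 with Plagl1 at the 3 stages other than E15.5. Zim1 and Usp29, neighbours of Peg3, were both among the first 100 genes of Peg3 at E13.5 and E15.5, Zim1 alone at P0, and neither at E14.5. Between the 2 groups of E15.5 cells, 6 of 30 other imprinted genes were 2-fold or more higher in the lower-scoring cells, against 4% of all genes. Among them were Dcn, Mirg, Kcnq1ot1 and Igf2, and 0 were that much lower (3.36% of all genes). Mirg, a noncoding RNA of the Dlk1 and Meg3 cluster, was at 3.11 (2.51 to 3.87) times, and Dcn, a matrix proteoglycan imprinted in placenta, at 6.17 (5.76 to 6.61) times.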

How the data were processed

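Single-cell 3′ libraries were made from FACS-sorted mammary tissue of 4 stages, 1 library each, so groups are the stages as labelled. The deposited values are UMI counts per gene and cell, which the authors made with Cell Ranger on mm10. The table headers give version 6.0.0 with 32285 genes at E13.5, E14.5 and P0 and version 3.1.0 with 31053 genes at E15.5, while the submitters' processing notes name 6.0.0 only. Tables were matched by Ensembl identifier. No doublet caller was run on these filtered cells, and 14, 1, 13 and 17 cells in order of stage had marker sums less than 10 times apart.

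Cells with 5000 or more UMIs and 6% or less mitochondrial UMIs were kept (4506046, 2111282, 21559040 and 5122125 UMIs in order of stage). UMIs were summed per tissue. Levels have exact Poisson, shares exact Clopper-Pearson binomial and ratios exact conditional binomial 95% intervals, all for counting error only. A gene was compared when it had 50 or more UMIs in both groups together, and counted from 2-fold. No test or p-value is given, since each group is 1 library. Correlations used the natural logarithm of 1 + UMIs per 10000. Scripts ran in Python 3.11.15 with numpy 2.4.6, scipy 1.17.1, pandas 2.3.3 and matplotlib 3.10.9, and were tested on simulated data.

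The members and lists were chosen with earlier results of these data known. Genes named are the 10 members, other listed imprinted genes with 50 CPM or more in a tissue of a stage, and the 3 genes with the highest r with each member in E15.5 mesenchyme among genes found in 25% or more of its cells. A gene of the latter is not reported here. Positions come from GENCODE and sequences from RefSeq, both on GRCm38.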

Additional observations from a re-analysis of the deposited data

Results flagged for a closer look

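The tissue order of Plagl1 and of Nnat differed between stages. Plagl1 was higher in mesenchyme at E13.5 (6.14 times), E14.5 (6.81 times) and P0 (26.1 times) and lower at E15.5 (0.755 times). On the log2 scale the E15.5 value was -0.41 and ran from -0.49 to -0.07 over the alternatives. Its sign was thus kept, but its size depended on the processing. The E15.5 library differs from the other 3 in Cell Ranger version and gene list. The mix of mammary and epidermal cells in the epithelium was also not alike between stages. Within E15.5 mesenchyme Plagl1 was at 386 CPM in the lower-scoring and 43.6 CPM in the upper-scoring cells by sub-epithelial markers. Epithelium was at 256 CPM, between these values. The part of the mix of mesenchymal cells in the ratio was not tested. Nnat was 2.59, 2.30 and 1.67 times higher in mesenchyme at the 3 embryonic stages in order, and 0.254 times at P0, on 46 UMIs. Of its 37 epithelial UMIs at P0, 27 lay in the 10 cells with the most. The 26 epithelial cells without a UMI of the 3 collagens held 1, or 3.69 CPM (0.0934 to 20.6), against 3.59 CPM in mesenchyme. With 1 library per stage, the difference between stages was not tested for either gene.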

How the results depend on the processing

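Counts of members higher in mesenchyme stayed within 1.5 times of those given under every alternative run (other cell filters, thinning, marker sums, pseudocount, scaling). The count 2-fold apart between E13.5 and E15.5 in mesenchyme was 2 rather than 1 with a mitochondrial limit of 10%, with thinned cells and with an epithelial sum of Epcam, Krt8 and Krt18. Between E15.5 and P0 it was 7 rather than 4 when divided by the median ratio of all genes. The median r at E14.5 was 0.376 with the 10% limit and 0.250 with thinned cells, at E15.5 0.084 with thinned cells, and at P0 0.192 without cells of other marker lists. The cause was not tested. In all, 8 such values moved and 142 did not, and of those for single genes and pairs 237 moved and 1234 did not, most often with thinned cells (74). Plagl1 in epithelium from E13.5 to E14.5 went from 0.74 to -0.32 on the log2 scale with thinned cells. The alternatives without cells of other marker lists and with division by the median were chosen after seeing the data. No paired analysis was possible because each stage is 1 library. Few UMIs limit Nnat in both tissues and Mest and Ndn in epithelium at P0, and 31 cells limit E14.5 mesenchyme.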

Other observations

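In the epithelium of E13.5, where H19 was high and uneven between cells, H19 had r of 0.604 with Meg3, -0.377 with Cdkn1c and -0.588 with Nnat over 98 cells. At E15.5 its r with Nnat in epithelium was -0.325 over 532 cells. Mammary and epidermal cells were not separated here, and by the study's counts mammary cells would be a small part at E13.5. These r values were picked out after they were seen.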
